A study of Homo sapiens with 6 samples.

Results

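The 3 paralogs of the IGF2BP family, IGF2BP1, IGF2BP2 and IGF2BP3, were examined as RNAs in crosslinking libraries of the protein that one of them encodes. A cluster, a stretch of genome with overlapping reads and T-to-C conversions, was assigned to a paralog when it shared 1 nt or more with an exon of that gene, strand included (GENCODE release 44). By this rule 87 of the 244645 clusters in 6 libraries belonged to the family: 0 to IGF2BP1, 32 to IGF2BP2 and 55 to IGF2BP3. In all, 11988 genes had a cluster in at least 1 library.

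The IGF2BP proteins carry RNA recognition motifs and KH domains, bind mRNAs mostly in their 3'UTRs, and are known for effects on mRNA stability, localization and translation. They are oncofetal proteins: strongly expressed in the embryo, low in most adult tissues, and often found again in tumors. The let-7 microRNAs, which are abundant in differentiated cells, are textbook repressors of this family and of other oncofetal genes.

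All libraries came from HCT116, a human colorectal carcinoma line that here carried a Tet-OsTIR1-PURO construct and served as a single line with 1 library per condition. The cells received 4-thiouridine (4sU), a photoreactive uridine analog, at 100 µM for 15 h before crosslinking at 365 nm. Crosslinked RNA was trimmed by RNase first in the lysate and then on the beads. The libraries are named by enzyme and by these 2 concentrations in U/µL: RNase I 0.05/0.05, RNase I 0.1/0.025, RNase I 0.05/0.025, RNase T1 1/1 and RNase T1 0.25/0.25, all with an antibody to IGF2BP3, and IgG RNase I 0.1/0.025 as control. RNase I cuts with little sequence preference and RNase T1 cuts after G. RNase I 0.05/0.05 and RNase T1 1/1 were electroeluted from the protein gel and the other IGF2BP3 libraries were taken from crushed gel, so effects of elution and of RNase dose cannot be told apart. The antibody also binds IGF2BP2 to some degree according to the study, so footprints of both proteins cannot be told apart. The paper describes HCT116 as low in IGF2BP1 and high in IGF2BP2 expression. RNA input was not analysed here, and more mRNA and more crosslinking per mRNA cannot be told apart either.

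The IGF2BP3 libraries held between 182448 reads in clusters (RNase T1 0.25/0.25) and 2362467 (RNase I 0.05/0.05), and the IgG library held 324. CPM, the unit used for levels, are reads per 1000000 of these cluster reads. A count of 0 was taken here as up to 3 reads. Those 3 reads were 1.27 CPM in RNase I 0.05/0.05, 3.73 in RNase I 0.1/0.025, 4.47 in RNase I 0.05/0.025, 2.59 in RNase T1 1/1, 16.4 in RNase T1 0.25/0.25 and 9259 in IgG, where absence therefore says little. All 5 epithelial marker genes (EPCAM, CDH1, KRT8, KRT18, KRT19) had clusters in 3 of the 5 IGF2BP3 libraries and 4 and 2 of them in the other two, whereas 3 immune and 3 fibroblast or endothelial markers had none. With 1 library per condition no test between conditions was possible, and the 95% intervals given here (exact Poisson for counts and ratios of counts, Wilson for shares) cover counting error only.

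Positions are given on GRCh38, and as distance in nt downstream of the stop codon. One stretch of the IGF2BP2 3'UTR and 3 stretches of the IGF2BP3 3'UTR were covered by clusters in all 5 IGF2BP3 libraries. RNase T1 0.25/0.25, with 4 family clusters, limits this number, and 6 stretches of each gene were covered in all of the other 4 libraries. The stretches found in all 5 are shown as the mRNA strand in DNA letters, with CATT and CATA in capitals, the DNA forms of tetramers that are examined below.
IGF2BP2, chr3:185644744-185644769, minus strand: tacaccCATTtctctttgcttcacag
IGF2BP3, chr7:23310402-23310424, minus strand: atatttcacttctagccttttag
IGF2BP3, chr7:23310375-23310397, minus strand: gcaaatCATAttttacttttact
IGF2BP3, chr7:23310284-23310312, minus strand: tactcacCATAtatggatCATTcctcatg
The IGF2BP2 stretch lay 762 to 787 nt after the stop codon. The IGF2BP3 stretches lay at 1938 to 1960, 1965 to 1987 and 2050 to 2078 nt, close to the end of a 3'UTR of 2153 nt. The stretches held 10, 11, 11 and 10 T, the letter at which a 4sU crosslink is read as C.

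IGF2BP1 had no cluster. The gene (ENSG00000159217.10, chr17:48997385-49056145, plus strand) encodes the paralog that binds the MYC coding region and beta-actin mRNA, and its canonical mRNA of 8796 nt has the longest 3'UTR of the family, 6701 nt. Its read count was 0 in each of the 5 IGF2BP3 libraries and in IgG. For these counts of 0 the 3-read limits given above apply to reads in clusters, and reads outside clusters were not counted. A protein-coding gene without a cluster was common: 46.7% of 20046 had a cluster in any library. No cluster lay in an intron or on the opposite strand of any of the 3 genes.

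IGF2BP2 and IGF2BP3 both had clusters in all 5 IGF2BP3 libraries and none in IgG. IGF2BP2 (ENSG00000073792.16, chr3:185643130-185825042, minus strand), the paralog with the broadest expression in adult tissue, had 215 reads (91.0 CPM, 79.2 to 104) in RNase I 0.05/0.05 and 55 reads (68.5 CPM, 51.6 to 89.1) in RNase I 0.1/0.025. It had 47 reads (70.1 CPM, 51.5 to 93.2) in RNase I 0.05/0.025, 149 reads (129 CPM, 109 to 151) in RNase T1 1/1 and 6 reads (32.9 CPM, 12.1 to 71.6) in RNase T1 0.25/0.25. The highest level was in RNase T1 1/1, and the crushed-gel RNase I libraries had overlapping intervals.

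IGF2BP3 (ENSG00000136231.14, chr7:23310209-23470491, minus strand) encodes the immunoprecipitated protein. It had 324 reads (137 CPM, 123 to 153) in RNase I 0.05/0.05 and 73 reads (90.9 CPM, 71.2 to 114) in RNase I 0.1/0.025. It had 82 reads (122 CPM, 97.2 to 152) in RNase I 0.05/0.025, 280 reads (242 CPM, 214 to 272) in RNase T1 1/1 and 21 reads (115 CPM, 71.2 to 176) in RNase T1 0.25/0.25. RNase T1 1/1 was again highest, and its interval did not overlap that of any other library. By reads IGF2BP3 ranked 1765 of 11080 genes with a cluster in RNase I 0.05/0.05 and 941 of 8723 in RNase T1 1/1, and IGF2BP2 ranked 2566 and 1860.

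**Figure D1:**
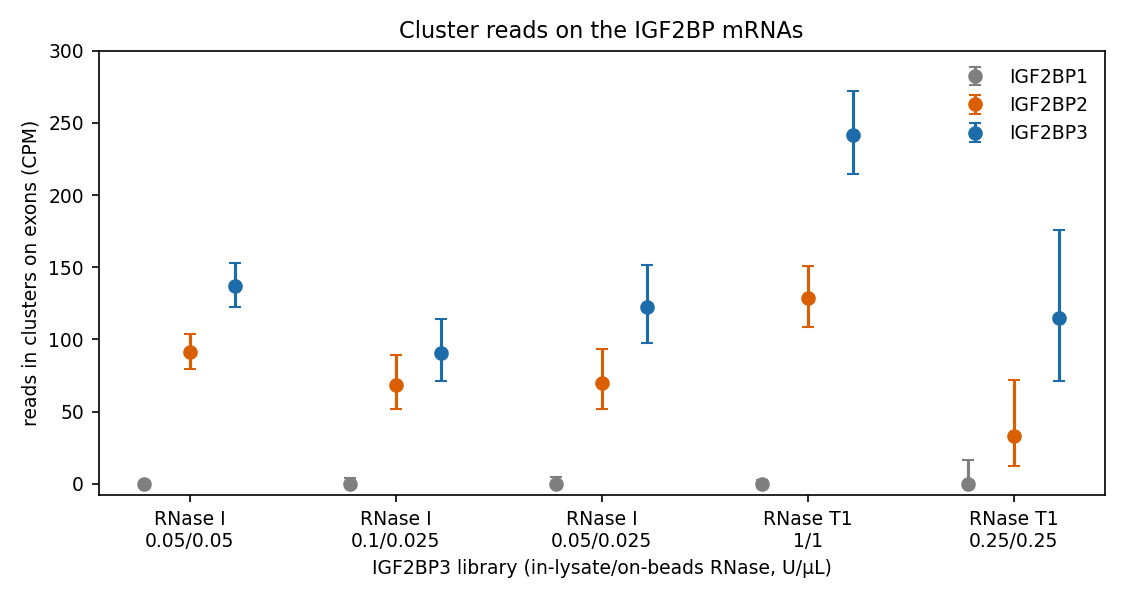
Reads in clusters on the exons of IGF2BP1 (grey), IGF2BP2 (orange) and IGF2BP3 (blue), in CPM of all cluster reads, for each IGF2BP3 library. Bars are exact Poisson 95% intervals of a single library, and at a count of 0 they reach up to the level of 3 reads. IGF2BP3 lies above IGF2BP2 in each library, from 90.9 to 242 CPM against 32.9 to 129, and IGF2BP1 is at 0 throughout.

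The order of the paralogs was the same in all 5 libraries, IGF2BP3 above IGF2BP2 above IGF2BP1, but the size of the step varied. The ratio of IGF2BP3 to IGF2BP2 reads was 1.51 (1.26 to 1.80) in RNase I 0.05/0.05, 1.33 (0.923 to 1.92) in RNase I 0.1/0.025, 1.74 (1.20 to 2.55) in RNase I 0.05/0.025, 1.88 (1.54 to 2.31) in RNase T1 1/1 and 3.50 (1.37 to 10.6) in RNase T1 0.25/0.25. In RNase I 0.1/0.025 the interval included 1, so the 2 genes were not distinguishable there at this depth. Since the canonical mRNAs have nearly the same length, 4283 nt for IGF2BP2 and 4274 nt for IGF2BP3, the ratio per kb of canonical mRNA was 1.51, 1.33, 1.75, 1.88 and 3.51. Per kb of all annotated exon bases, 5330 for IGF2BP2 and 8535 for IGF2BP3, the ratio was 0.941, 0.829, 1.09, 1.17 and 2.19 in the same order of libraries, so on that scale IGF2BP2 was higher in 2 of the 5. Per nt of canonical 3'UTR, IGF2BP3 was 1.70 (1.41 to 2.05), 1.36 (0.937 to 1.98), 1.42 (0.956 to 2.13), 2.11 (1.72 to 2.61) and 3.90 (1.52 to 11.8) times IGF2BP2.

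Both mRNAs were lower with RNase I than with RNase T1 in the electroeluted libraries. The CPM ratio of RNase I 0.05/0.05 to RNase T1 1/1 was 0.707 (0.571 to 0.877) for IGF2BP2 and 0.567 (0.482 to 0.667) for IGF2BP3, beside a median of 0.924 and quartiles of 0.624 and 1.43 over 5417 genes with at least 20 reads in both libraries. The ratio was lower than that of IGF2BP2 in 32.1% of these genes and lower than that of IGF2BP3 in 20.1%. The direction did not carry over to crushed gel, where RNase I 0.05/0.025 over RNase T1 0.25/0.25 gave 2.13 (0.909 to 6.10) for IGF2BP2 and 1.06 (0.651 to 1.81) for IGF2BP3, and both intervals included 1. Only 6 and 21 reads stood behind the RNase T1 0.25/0.25 values.

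Most of the reads lay in 3'UTRs, the region where IGF2BP proteins are known to bind. Over the 5 libraries, 439 of 472 IGF2BP2 reads (93.0%) lay in the 3'UTR and 33 in the coding sequence. For IGF2BP3, 705 of 780 reads (90.4%) lay in the 3'UTR of the canonical transcript and 75 in its coding sequence. With all transcripts of IGF2BP3 the 3'UTR count was 728 (93.3%), because another transcript has an annotated 3'UTR over coding exons of the canonical transcript. No read lay in the 5'UTR of either mRNA.

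By library, the canonical 3'UTR share of IGF2BP2 was 87.9% in RNase I 0.05/0.05, 95.3% in RNase T1 1/1 and 100% in the other 3 libraries. That of IGF2BP3 was 88.9% in RNase I 0.05/0.05, 91.8% in RNase I 0.1/0.025, 73.2% in RNase I 0.05/0.025, 96.1% in RNase T1 1/1 and 100% in RNase T1 0.25/0.25. The lowest of these values, 73.2%, came with 22 coding reads of 82. Median shares over protein-coding genes with at least 20 reads ran from 91.8% in RNase I 0.05/0.05 to 100% in both RNase T1 libraries.

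Merging overlapping clusters across libraries gave 10 sites on IGF2BP2, 7 in the 3'UTR and 3 in the coding sequence, and 17 on IGF2BP3, 14 in the 3'UTR and 3 in the coding sequence. Sites are numbered here from the 5' end of each mRNA. On IGF2BP2, 4 sites were seen in a single library and 4 in at least 3; on IGF2BP3 these counts were 5 and 7. Both enzymes gave a cluster at 6 IGF2BP2 sites and 8 IGF2BP3 sites. RNase I alone, with 3 libraries, gave 4 and 6 sites, and RNase T1 alone, with 2, gave 0 and 3. These 3 IGF2BP3 sites (1, 8 and 9) had 6, 6 and 13 reads in RNase T1 1/1. Each of their clusters had the same interval, reads and conversions as a cluster on IGF2BP3P1, a processed copy of the gene described below. Sites seen with a single enzyme were not counted for other genes. Unshared clusters were common there: 37.2% of their exon clusters in RNase I 0.05/0.05 overlapped one of RNase T1 1/1, and 76.5% in the reverse direction.

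**Figure D2:**
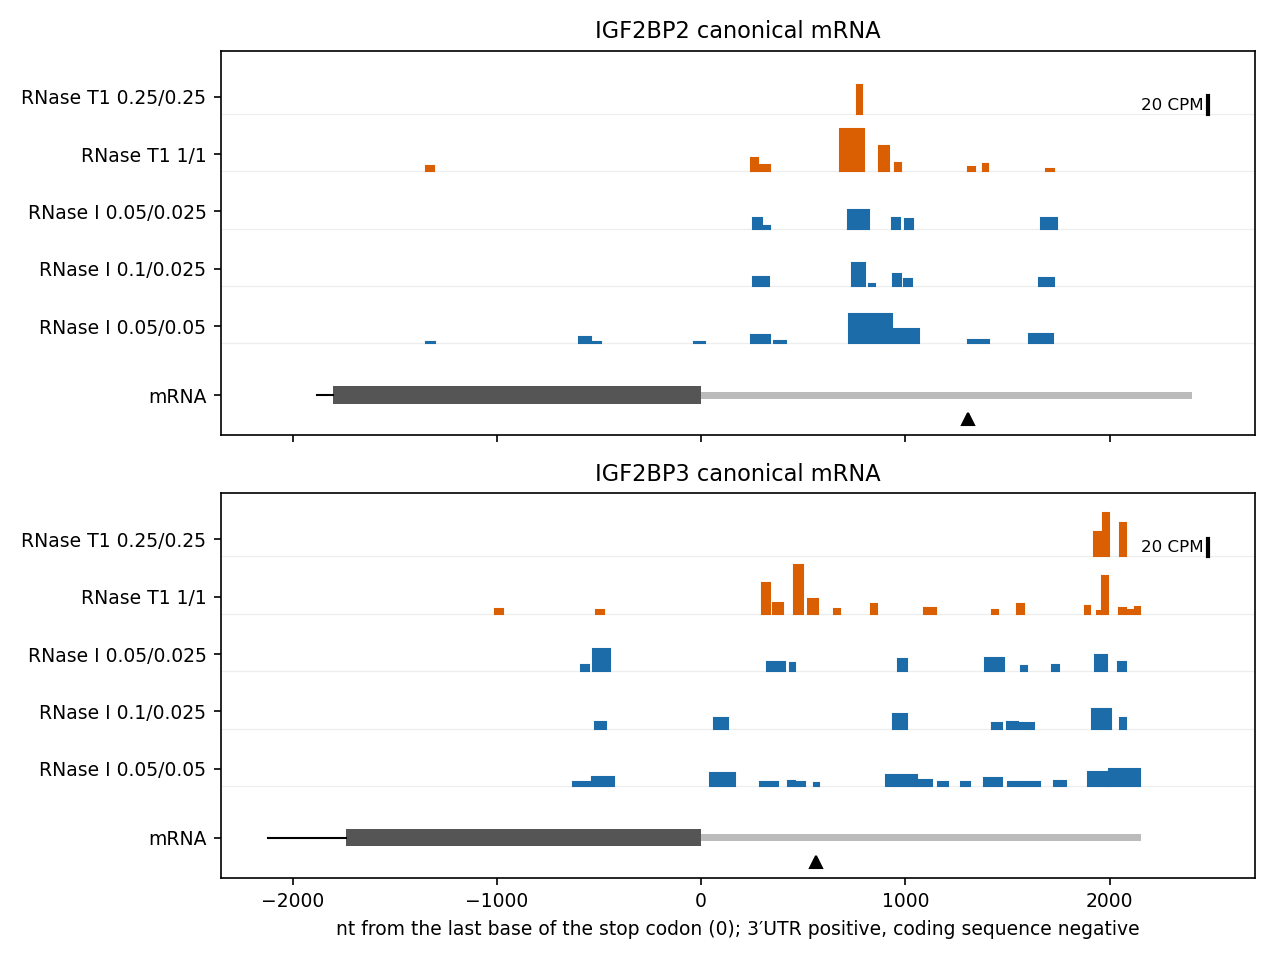
Clusters of each IGF2BP3 library on the canonical mRNAs of IGF2BP2 and IGF2BP3, with RNase I in blue and RNase T1 in orange. The x axis is distance in nt from the last base of the stop codon, bar height is the CPM of a cluster (scale bar 20 CPM), the dark box is the coding sequence, the grey bar the 3'UTR, the thin line the 5'UTR, and triangles mark let-7 seed matches. The site of IGF2BP2 at 682 to 933 nt and the site of IGF2BP3 at 1880 to 2148 nt have a cluster in every row.

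IGF2BP2 had a single site with clusters in all 5 libraries, site 7 (chr3:185644598-185644849, 682 to 933 nt after the stop codon), which contains the first sequence shown above. It held 80 of 215 reads in RNase I 0.05/0.05 (37.2%, 31.0 to 43.8), 23 of 55 in RNase I 0.1/0.025 (41.8%) and 14 of 47 in RNase I 0.05/0.025 (29.8%). With RNase T1 it held 89 of 149 (59.7%, 51.7 to 67.3) and 6 of 6. The site thus took a larger part of the gene's reads in RNase T1 1/1 than in RNase I 0.05/0.05, with intervals that did not overlap. Its downstream neighbor, site 8 (935 to 1065 nt), had 40, 17, 15, 11 and 0 reads in the same order, or 18.6% of all IGF2BP2 reads for RNase I 0.05/0.05 and 7.38% for RNase T1 1/1. Sites 5 (245 to 335 nt) and 10 (1603 to 1741 nt) were the other IGF2BP2 sites in 4 libraries.

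Clusters over the stretch of site 7 that all libraries shared, which were themselves mostly longer than it, had 0.688 conversion events per read in RNase I 0.05/0.05, 0.571 in RNase I 0.1/0.025 and 0.571 in RNase I 0.05/0.025. They had 0.446 in RNase T1 1/1, from 56 reads, and 0.333 in RNase T1 0.25/0.25, from 6 reads. The median of genes also was lower in RNase T1 1/1, 0.523 beside 0.640 in RNase I 0.05/0.05.

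IGF2BP3 also had a single site in all 5 libraries, site 17 (chr7:23310214-23310482, 1880 to 2148 nt), which reached to within 5 nt of the annotated end of the 3'UTR and contains the other 3 sequences shown above. It held 82 of 324 reads in RNase I 0.05/0.05 (25.3%, 20.9 to 30.3), 28 of 73 in RNase I 0.1/0.025 (38.4%), 19 of 82 in RNase I 0.05/0.025 (23.2%) and 86 of 280 in RNase T1 1/1 (30.7%, 25.6 to 36.3). All 21 reads of RNase T1 0.25/0.25 lay in it. Unlike at site 7 of IGF2BP2, the shares of the electroeluted libraries had overlapping intervals. Clusters over the middle stretch, at 1965 to 1987 nt, had 0.568, 0.944, 0.417, 0.760 and 0.889 conversion events per read.

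The electroeluted libraries differed at several sites of the IGF2BP3 3'UTR. Site 6 (423 to 509 nt) had 64 of 280 reads in RNase T1 1/1 (22.9%, 18.3 to 28.1) and 25 of 324 in RNase I 0.05/0.05 (7.72%, 5.28 to 11.1). Site 5 (288 to 411 nt) had 54 (19.3%, 15.1 to 24.3) and 11 (3.40%, 1.91 to 5.98). Both therefore took a larger part in RNase T1 1/1 than in RNase I 0.05/0.05. The other RNase T1 library, 0.25/0.25, had 0 of 21 reads at either site, RNase I 0.05/0.025 had 6 of 82 at site 6 (7.32%) and 7 at site 5 (8.54%), and RNase I 0.1/0.025 had 0 of 73. The opposite held at site 4 (42 to 163 nt), with 34 and 10 reads in RNase I 0.05/0.05 and 0.1/0.025 and 0 in RNase I 0.05/0.025 and both RNase T1 libraries, and at site 10 (905 to 1056 nt), with 30, 13 and 9 reads in the RNase I libraries and 0 with RNase T1. In RNase T1 1/1 a count of 0 allows up to 3 of the gene's 280 reads, 1.07%, against 10.5% and 9.26% at sites 4 and 10 in RNase I 0.05/0.05. At site 6, the RNase T1 1/1 cluster, with 55.3 CPM the highest of all 87, had 0.359 conversion events per read and did not reach the 0.5 that the study's methods ask for.

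**Figure D3:**
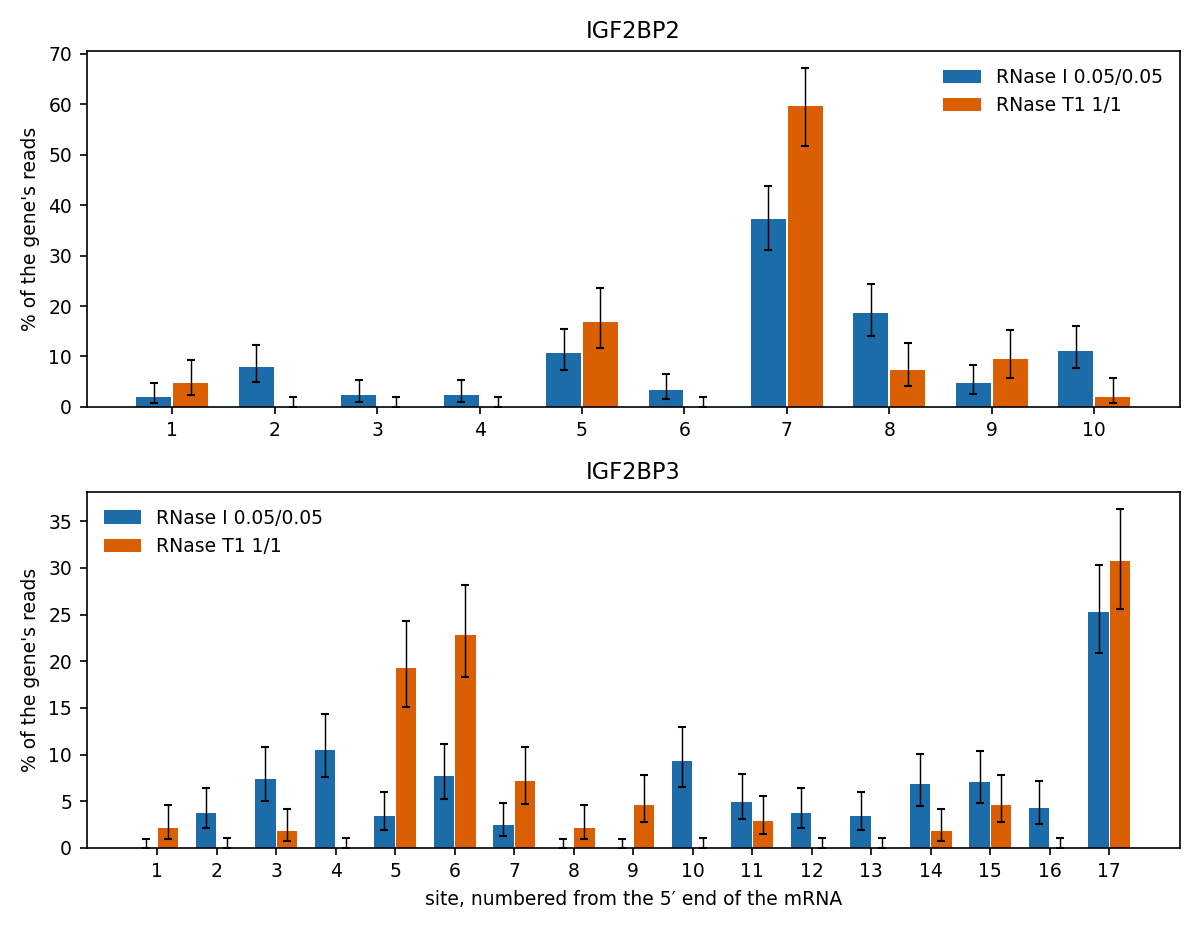
Share of each gene's reads at each site in the electroeluted libraries, RNase I 0.05/0.05 (blue) and RNase T1 1/1 (orange), with Wilson 95% intervals or, at a count of 0, a bar up to the share of 3 reads, for 10 IGF2BP2 and 17 IGF2BP3 sites numbered from the 5' end of the mRNA. The largest IGF2BP2 share is at site 7 with both enzymes, and IGF2BP3 sites 5 and 6 hold 19.3% and 22.9% of the reads in RNase T1 1/1 against 3.40% and 7.72% in RNase I 0.05/0.05.

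Coding clusters were few on both mRNAs. On IGF2BP3, site 3 (chr7:23319147-23319251) was the only coding site in more than 2 libraries, with 24, 6, 17, 5 and 0 reads. The coding sequences were 68.2% identical between IGF2BP2 and IGF2BP3 in a pairwise alignment. In that alignment the span of IGF2BP3 site 2, gaps included, overlapped IGF2BP2 site 2 by 40 nt. The span of IGF2BP3 site 3 overlapped IGF2BP2 site 3 by 36 nt. Site 1 of each gene had no counterpart in the other. The IGF2BP2 sites of these pairs had 17 and 5 reads, both in RNase I 0.05/0.05 alone. Over all of their 84 and 105 aligned nt, IGF2BP3 sites 2 and 3 were 54.8% and 69.5% identical to IGF2BP2.

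RNase I 0.05/0.05 covered more of the IGF2BP3 3'UTR than any other library. Clusters covered 55.1% of the bases of the canonical IGF2BP3 3'UTR in RNase I 0.05/0.05, 20.6% in RNase I 0.1/0.025, 19.2% in RNase I 0.05/0.025, 24.3% in RNase T1 1/1 and 4.60% in RNase T1 0.25/0.25. For IGF2BP2 the values were 30.3%, 13.7%, 13.8%, 15.7% and 1.08%. Medians over genes with a 3'UTR cluster ran from 23.2% in RNase I 0.05/0.05 to 7.82% in RNase T1 1/1 and 4.73% in RNase T1 0.25/0.25. The IGF2BP3 value exceeded that of 80.6% of such genes in RNase I 0.05/0.05 and 86.2% in RNase T1 1/1, and the IGF2BP2 value that of 59.5% and 73.9%. The deepest library also had the widest coverage, and the part of depth in it was not tested. The clusters were longest in RNase I 0.05/0.05, with a median of 84 nt on IGF2BP3 and 75.5 nt on IGF2BP2, against 34 and 39 nt in RNase T1 1/1.

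All IGF2BP2 clusters of RNase T1 1/1 (9 of 9) overlapped one of RNase I 0.05/0.05, while 6 of 10 overlapped in the reverse direction. Among exon clusters of other genes the shares were 76.5% and 37.2%, an asymmetry in the same direction. For IGF2BP3, 14 of 17 clusters of RNase T1 1/1, with 91.1% of their reads, overlapped one of RNase I 0.05/0.05, and 11 of 17, with 65.1% of the reads, in the reverse direction, beside 89.1% and 75.1% of the reads in exon clusters of other genes. All clusters of both crushed-gel RNase I libraries, on both genes, overlapped clusters of RNase I 0.05/0.05, beside 91.8% of the clusters of other genes for RNase I 0.1/0.025 and 93.3% for RNase I 0.05/0.025.

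With RNase I, conversion per read in the clusters of both mRNAs was at or above the median of genes with at least 20 reads. IGF2BP2 had 0.716, 0.745 and 0.617 conversion events per read in RNase I 0.05/0.05, 0.1/0.025 and 0.05/0.025, and IGF2BP3 had 0.657, 0.753 and 0.659, beside gene medians of 0.640, 0.653 and 0.616. In RNase T1 1/1 the values were 0.503 and 0.514, with a gene median of 0.523. In RNase T1 0.25/0.25 they were 0.333 (0.0404 to 1.20) for IGF2BP2 from 6 reads and 0.762 for IGF2BP3 from 21, beside 0.556 for genes. The IGF2BP2 interval included the IGF2BP3 value, so the genes were not distinguishable there. As a share of conversion and non-conversion events, IGF2BP2 had 8.57% (7.37 to 9.96) in RNase I 0.05/0.05 and 5.98% (4.80 to 7.43) in RNase T1 1/1, and IGF2BP3 had 7.79% (6.84 to 8.86) and 5.18% (4.41 to 6.06). For IGF2BP3 these intervals did not overlap, and for IGF2BP2 they overlapped narrowly.

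**Figure D4:**
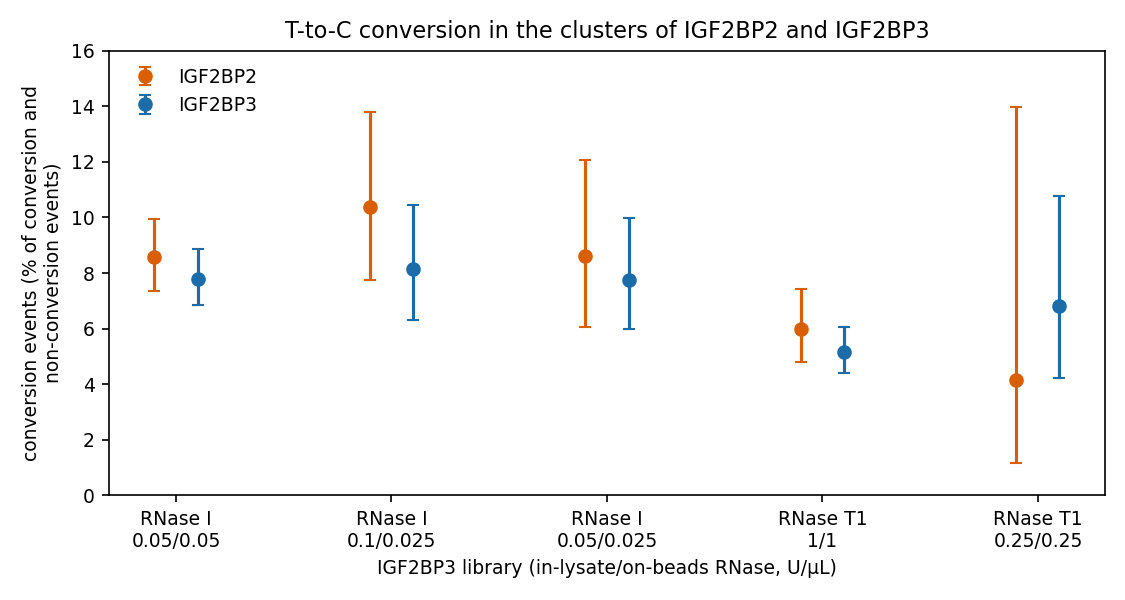
T-to-C conversion events as a percentage of conversion plus non-conversion events in the clusters of IGF2BP2 (orange) and IGF2BP3 (blue) in each IGF2BP3 library, with Wilson 95% intervals. Both genes are lower in RNase T1 1/1, at 5.98% and 5.18%, than in RNase I 0.05/0.05, at 8.57% and 7.79%, and the intervals of the genes overlap within every library.

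The study's methods call a gene a target when a cluster has more than 10 CPM and conversion above 50% per read, taken here as more than 0.5 conversion events per read. CPM here are of cluster reads, and the paper does not state its denominator. On this basis IGF2BP3 met the criteria in all 5 libraries, IGF2BP2 in 4 of 5 and IGF2BP1 in none. They were met by 4981 genes in RNase I 0.05/0.05 and 4300 in RNase T1 1/1. Both counts exceed the number of targets that the paper reports for that enzyme. Among genes with a cluster, the criteria were met by 45.0% in RNase I 0.05/0.05, 63.3% in RNase I 0.1/0.025, 70.1% in RNase I 0.05/0.025, 49.3% in RNase T1 1/1 and 80.3% in RNase T1 0.25/0.25, so a call was common. IGF2BP3 had 5, 3, 5, 3 and 3 clusters that met both criteria and IGF2BP2 had 3, 2, 4, 1 and 0. In RNase T1 0.25/0.25 the 10 CPM correspond to 1.82 reads, below the smallest cluster listed, and the IGF2BP2 cluster there, at 32.9 CPM, fell short on conversion alone. Site 17 of IGF2BP3 met the criteria in 5 libraries, the only site of the family to do so.

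Both tetramers that the study compared between enzymes, CAUU and CAGU, were counted in the cluster sequences, together with CAUA and with GGAC, the core of the m6A consensus. They were read on the mRNA strand, with T for U. Of the 27 clusters of IGF2BP2 and IGF2BP3 in RNase I 0.05/0.05, 13 held CAGU (48.1%, 30.7 to 66.0), beside 34.3% of clusters on exons of other genes. CAUU was in 10 (37.0%, beside 38.8%), CAUA in 10 (37.0%, beside 22.9%) and GGAC in 4 (14.8%). In RNase T1 1/1, CAGU was in 6 of 26 (23.1%, beside 11.7%), CAUU in 7 (26.9%, beside 35.0%), CAUA in 8 (30.8%, beside 20.8%) and GGAC in 1 (3.8%, beside 5.5%). The Wilson intervals of all 4 tetramer shares included the value of the other genes in both of these libraries. In the crushed-gel libraries this held for CAUU, CAGU and GGAC. The CAUA interval excluded that value in RNase I 0.05/0.025, with 7 of 16 clusters (43.8%, 23.1 to 66.8, beside 22.9%). It also did in RNase T1 0.25/0.25, with 3 of 4 clusters and a lower limit of 30.1%, beside 23.1%. In RNase I 0.1/0.025 it included the value, with 6 of 14 (42.9%, 21.4 to 67.4, beside 23.9%). The 3 CAUA clusters of RNase T1 0.25/0.25 all lay in site 17 of IGF2BP3. These intervals treat clusters as independent, which neighbouring clusters of the same gene need not be. Cluster length was not matched, so no enrichment of CAUA is read from these values. Of the RNase T1 1/1 clusters, 25 of 26 (96.2%) ended in G, beside 94.8% of all exon clusters, and with RNase I 0.05/0.05 this was 4 of 27 (14.8%, beside 13.4%).

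The let-7 seed match CTACCTC was present in all 3 mRNAs of the family. The seed, bases 2 to 8 in capitals, is shared by 9 mature human microRNAs of the let-7 and miR-98 group in RefSeq, of which let-7a is shown first, followed by the 3'UTR windows with the match in capitals.
hsa-let-7a-5p: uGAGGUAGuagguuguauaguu
IGF2BP1, chr17:49051076-49051082: tgcgaagtaaaCTACCTCaaggtatgaag
IGF2BP1, chr17:49053713-49053719: agtgctagtaaCTACCTCacagagcccca
IGF2BP1, chr17:49054367-49054373: aaatggattaaCTACCTCaatccttacag
IGF2BP1, chr17:49055012-49055018: ttttgttttatCTACCTCttagcaaaaca
IGF2BP2, chr3:185644221-185644227: cacagaagaagCTACCTCaggtgttttta
IGF2BP3, chr7:23311796-23311802: tttttactcaaCTACCTCaggtattcagt
The coordinates are those of the 7 capital letters. IGF2BP1 had 4 matches, at 1632, 4269, 4923 and 5568 nt after the stop codon. IGF2BP2 had 1 at 1304 nt and IGF2BP3 had 1 at 560 nt. At least 1 match was present in 1909 of 19550 canonical 3'UTRs (9.76%).

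The matches of IGF2BP2 and IGF2BP3 overlapped clusters in the electroeluted libraries only, that of IGF2BP2 in part, by 5 of its 7 letters, and that of IGF2BP3 over its whole length. With RNase I 0.05/0.05 the cluster over the IGF2BP2 match had 10 reads, and with RNase T1 1/1 it had 5, while the cluster over the IGF2BP3 match had 8 and 20 reads. The 3 crushed-gel libraries had no cluster over either match, and they covered less of both 3'UTRs. Clusters covered 30.3% and 15.7% of the IGF2BP2 3'UTR and 55.1% and 24.3% of that of IGF2BP3 in RNase I 0.05/0.05 and RNase T1 1/1. In crushed gel they covered at most 13.8% and 20.6%. In RNase I 0.05/0.05 and RNase T1 1/1 the IGF2BP2 clusters there had 0.80 and 0.60 conversion events per read and the IGF2BP3 clusters 0.25 and 0.30. An overlap of letters and cluster is a position, and let-7 binding was not measured.

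Much of the family's footprint sequence occurs more than once in the genome. RefSeq lists 5 processed pseudogenes, intronless copies of an mRNA, with names from this family: IGF2BP2P1 (chr12:42286830-42290329), IGF2BP2P2 (chr1:147050745-147054234), IGF2BP2P3, IGF2BP3P1 (chr6:166699361-166703092) and IGF2BP3P2 (chr7:56597548-56601545). Each 30-nt window of the member clusters was searched for other places with at most 3 mismatches, the tolerance of the alignment. Of 683 IGF2BP2 windows 652 had such a place and 339 an identical one. Of 1123 IGF2BP3 windows 1039 had such a place and 461 an identical one. All 27 sites had a place elsewhere for at least 1 window, and in 24 of them (9 and 15) a window was identical to it.

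The paralogs were much less like each other. No IGF2BP2 window had a place in exons of IGF2BP1 or IGF2BP3, and 12 of the 1123 IGF2BP3 windows had one in exons of IGF2BP1, which had no cluster.

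The named copies held 45 clusters, all in the sense of the parent mRNA, and 39 of these were identical to the parent mRNA over their whole length. In 38 cases the parent had a cluster at the corresponding place in the same library. The copies of IGF2BP2 had 155, 20, 20, 86 and 0 reads (65.6, 24.9, 29.8, 74.3 and 0 CPM) and those of IGF2BP3 had 119, 20, 4, 37 and 0 reads (50.4, 24.9, 5.96, 32.0 and 0 CPM) in RNase I 0.05/0.05, RNase I 0.1/0.025, RNase I 0.05/0.025, RNase T1 1/1 and RNase T1 0.25/0.25. In 5 cases clusters of a named copy and its parent had the same interval, reads and conversions. Among them were the IGF2BP3 sites 1, 8 and 9 seen with RNase T1 alone. Whether such reads are listed at both places is not given in the sources used here, so the reads of gene and copies were not added. An unnamed copy of IGF2BP3 on chr11:94758234-94759561 had 37, 7, 0, 60 and 9 reads, and an unnamed copy of IGF2BP2 on chr4 had 16, 5, 0, 0 and 0. Another unnamed copy of IGF2BP3, on chr12, had no cluster. Clusters of the unnamed copies were not compared with parent clusters in this way. In RNase T1 0.25/0.25 the chr11 copy had 1 cluster of 9 reads, and a cluster of IGF2BP3 site 17 also had 9 reads there. Whether reads of site 17 are listed at both places was not tested.

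**Figure D5:**
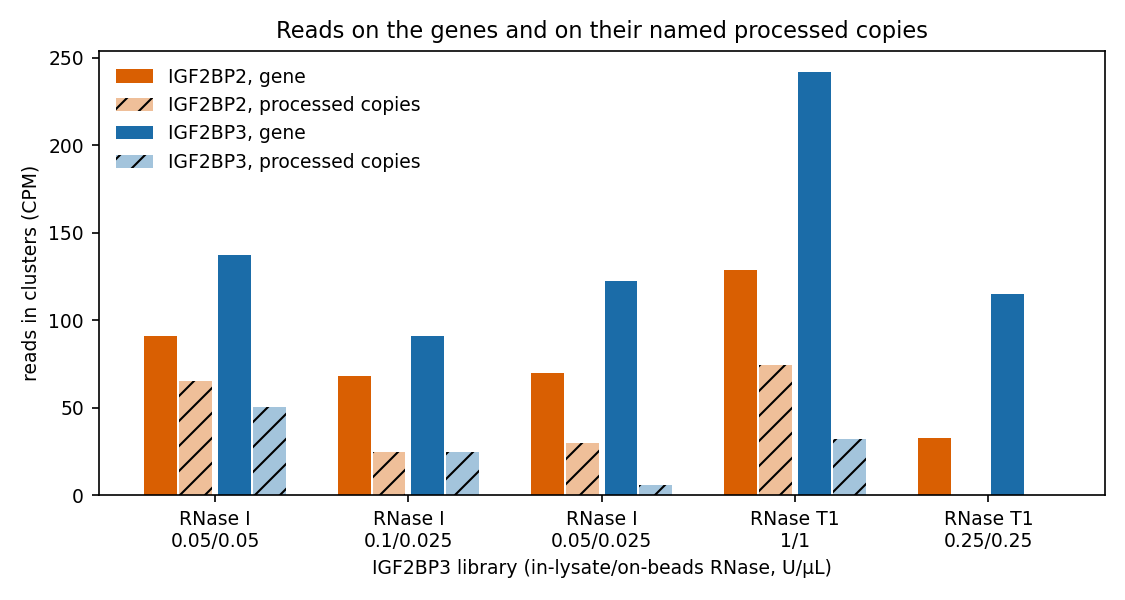
Reads in clusters on IGF2BP2 (orange) and IGF2BP3 (blue) and, hatched, on their named processed copies, in CPM of all cluster reads, for each IGF2BP3 library. The copies of IGF2BP2 reach 74.3 CPM beside 129 for the gene in RNase T1 1/1, and the named copies have no cluster in RNase T1 0.25/0.25. Reads listed at both a gene and a copy would be drawn in both bars.

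At up to 3 mismatches, 1 of the 87 clusters, on IGF2BP2 in RNase T1 1/1, had no other place for any of its windows. A narrower measure counts identical windows only. Clusters without any 30-nt window identical to another place held 7, 2, 2, 47 and 0 reads of IGF2BP2 and 50, 16, 31, 104 and 12 reads of IGF2BP3 in the same order of libraries, at most 31.5% of the reads of IGF2BP2 and 15.4% to 57.1% of those of IGF2BP3. From these alone IGF2BP3 met the target criteria in 3 libraries and IGF2BP2 in 0. IGF2BP3 kept more reads than IGF2BP2 in every library. What is kept depends on each gene's copies and on cluster length, so the order of the paralogs cannot be read from this measure. Of the stretches shown at the start, that of IGF2BP2 had 2 identical places elsewhere, the middle one of IGF2BP3 had 1 and its other two had 0. Whether the copies are transcribed in HCT116 was not tested.

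Among 12 genes linked to the IGF2BP proteins, counting those without a cluster, IGF2BP2 and IGF2BP3 ranked near the middle in CPM. IGF2BP1, at 0, stood below every one with a cluster. The list holds partners in the coding region determinant complex (HNRNPU, SYNCRIP, YBX1, DHX9), other mRNP proteins (ELAVL1, MATR3, PABPC1) and members of the oncofetal let-7 circuit (LIN28A, LIN28B, HMGA2, IGF2, IGF1R). Of the 12, 9, 9, 8, 9 and 8 had a cluster and 8, 7, 7, 7 and 8 met the target criteria, read against the shares of all genes given above. IGF2BP2 was exceeded by 6, 6, 6, 7 and 7 of them in CPM, and IGF2BP3 by 6, 6, 6, 5 and 7. Of the 8 linked genes with a cluster in RNase T1 0.25/0.25, 7 were therefore above both paralogs. The highest was PABPC1, the cytoplasmic poly(A)-binding protein, with 4872 CPM in RNase I 0.05/0.05 and also 15 reads in the IgG library. HMGA2, a let-7 target like the IGF2BP genes, followed with 1161 CPM. LIN28A, LIN28B and IGF2, the mRNA for which the family is named, had no cluster in any library.

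The profile of IGF2BP3 over the 5 libraries was compared with that of 1671 genes that had at least 20 reads in each. By distance of log2 CPM centred on each gene's mean, genes with a profile close to that of IGF2BP3 included PLBD2 (0.32) and PAWR (0.33). PLBD2 had 355 CPM in RNase I 0.05/0.05, 219 in RNase I 0.1/0.025 and 237 in RNase I 0.05/0.025. It had 596 CPM in RNase T1 1/1 and 263 in RNase T1 0.25/0.25. Genes chosen by this distance share the shape of the profile by construction. IGF2BP1, at 0, and IGF2BP2, with 6 reads in RNase T1 0.25/0.25, did not have enough reads for this comparison.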

How the data were processed

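IR-PAR-CLIP was done on 5 IGF2BP3 libraries (3 RNase I, 2 RNase T1) and 1 IgG library of HCT116. As the methods and the submitters' processing notes state, the authors demultiplexed with bcl2fastq 2.20.0.422, took UMIs and removed duplicates with UMI-tools 1.1.1, trimmed with Trimmomatic 0.30, aligned to GRCh38 with Bowtie 0.12.7 and ran PARalyzer on each library to call clusters. The rule for reads that align to several places is not given in the sources used here. The deposited values used are counts per cluster: reads, conversion events and non-conversion events. All 244645 deposited sequences were identical to the reference at their coordinates.

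Clusters were joined to GENCODE release 44 exons with Python 3.11.15, pandas 2.3.3, numpy 2.4.6 and pysam 0.24.0. Where a cluster met several features the order was 3'UTR, coding sequence, 5'UTR, other exon. Intervals came from scipy 1.17.1, pairwise alignments from Biopython 1.88, figures from matplotlib 3.10.9. Copies were sought in 30-nt windows with up to 3 mismatches (numba 0.67.0). On simulated data 200 of 200 gene counts, 100 of 100 targets and 80 of 80 planted copies were recovered. Per library, 3 reads correspond to 1.27 to 16.4 CPM in the IGF2BP3 libraries.

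Genes named are the 3 paralogs, a list of 12 linked genes with those at the ends of its range, and the 3 genes nearest to a paralog in log2 CPM with at least 20 reads per library, of which 1 is not reported here; HMGA2 is named beside them after its values were seen. The members and lists were chosen with earlier results of these data known. Alternatives changed the CPM denominator, exon set, features, filters on clusters, thresholds, libraries compared and motif window. Pseudogene names and let-7 sequences came from RefSeq (GRCh38). One copy's coordinates and all protein sequences are not reported here.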

Additional observations from a re-analysis of the deposited data

How the results depend on the processing

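No paired analysis was possible because each condition had 1 library, and no replicate could be left out. Of 148 alternative values for 70 results, 97 were classed as the same, 49 as moved and 2 as reversed. A value was the same when it lay within the interval of the main result. For 3'UTR coverage that interval treated bases as independent. Counts of target libraries and of nearest genes were held to a fixed fold limit instead. The RNase I over RNase T1 ratio turned above 1 in crushed gel, 2.13 for IGF2BP2 and 1.06 for IGF2BP3, and was 0.532 and 0.375 for RNase I 0.1/0.025 against RNase T1 1/1. Gel extraction and concentration changed together, and the cause was not tested.

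With clusters of at least 10 reads, which drops clusters by construction, IGF2BP2 fell to 39.8 CPM in RNase I 0.1/0.025, 20.9 in RNase I 0.05/0.025, 101 in RNase T1 1/1 and 0 in RNase T1 0.25/0.25, and IGF2BP3 to 63.5, 58.1, 194 and 0. The 3'UTR shares became 100% for IGF2BP2 in RNase T1 1/1, and for IGF2BP3 100% in RNase I 0.1/0.025, 56.4% in RNase I 0.05/0.025 and 100% in RNase T1 1/1. Taking coding sequence first, or the canonical transcript alone, gave 88.9% for IGF2BP3 in RNase I 0.05/0.05.

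The next alternatives were added after seeing the data. With clusters free of windows identical elsewhere, IGF2BP2 had 2.96, 2.49, 2.98, 40.6 and 0 CPM and IGF2BP3 had 21.2, 19.9, 46.2, 89.9 and 65.8, and the target criteria were met in 0 and 3 libraries. With clusters that had at least 1 window not identical elsewhere, IGF2BP2 had 98.5 CPM in RNase T1 1/1, and IGF2BP3 had 164 there and 65.8 in RNase T1 0.25/0.25. A planned minimum of 20 reads left targets in 2 and 2 libraries, and more than 0.75 events per read left IGF2BP2 in 1.

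Per kb of canonical mRNA, IGF2BP3 over IGF2BP2 was 1.51, 1.33, 1.75 and 1.88 in the first 4 libraries, where all exon bases gave 0.941 to 1.17. With clusters above 10 CPM, 3'UTR coverage was 19.1%, 4.29%, 12.5% and 8.37% for IGF2BP2 and 24.5%, 12.6%, 15.2% and 12.2% for IGF2BP3 in these libraries. Extending clusters by 10 nt gave CAUU in 46.2% of RNase T1 1/1 clusters and CAUA in 100% of RNase T1 0.25/0.25 clusters. Without centring, 0 of the 3 genes nearest to IGF2BP3 were the same.

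Depth limits RNase T1 0.25/0.25 and IgG most: 6 and 21 reads stand behind the IGF2BP2 and IGF2BP3 values in the former.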
